A study of Mus musculus with 27 samples.

Results

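The transcripts of 10 genes that break down the extracellular matrix or restrain its breakdown were followed through muscle injury and repair. They were the matrix metalloproteinase genes Mmp2, Mmp3, Mmp12, Mmp13, Mmp14 and Mmp19 and the tissue inhibitor of metalloproteinase genes Timp1, Timp2, Timp3 and Timp4, taken by gene name from the deposited expression tables. Each of the 10 had 1 entry among 55852 in the table of injured muscle and 1 among 55677 in the table of control muscle. RNA of mouse muscle was sequenced in 27 libraries, 3 per group. CTX (cardiotoxin, a snake venom peptide that lyses muscle fibers) was injected into muscle of WT mice and of Gsdme-deficient mice (KO), which were sampled on D1, D4, D7 and D14, and the remaining group was WT control muscle with no KO counterpart. Gsdme encodes gasdermin E, which forms membrane pores after cleavage by a caspase. The study used male mice, a C57BL/6J WT strain and a global Gsdme KO. The age of these mice is not given in the sources used here, and replicates are described as biological. The libraries are titled KO, whereas their genotype field reads Gsdme knockdown, and KO below means the libraries so titled. The study's methods name the gastrocnemius and the contralateral muscle as control, whereas the deposited design names the thigh and an unloaded control.

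Matrix metalloproteinases are zinc-dependent enzymes, secreted or anchored in the cell membrane, that cut collagens, laminins, elastin, proteoglycans and other matrix proteins. Most are made as inactive precursors, and TIMP proteins block the active enzymes by binding to the catalytic site. In injured muscle, matrix is removed and rebuilt while leukocytes enter, fibro-adipogenic progenitors (FAPs, the mesenchymal cells that lay down matrix) expand and satellite cells form new fibers. Transcript abundance does not report enzyme activity, since precursors must be cleaved and inhibitors can block them.

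Abundance was given as TPM (reads corrected for gene length and brought to a common total per library), so that levels of different genes can be compared and read depth is unknown. Differences below are of log2(TPM + 1), with the SE and the Benjamini-Hochberg adjusted p of limma over all genes tested. A gene is described as called at an adjusted p under 0.05. Libraries of successive WT groups did not overlap for 71.3% of genes tested from control to D1 and for 29.5% from D1 to D4. The shares were 42.7% from D4 to D7 and 63.5% from D7 to D14, and 30.7% from D1 to D4 in KO muscle. The injured table had from 12329 to 14704 genes at 1 TPM or more per library. Gsdme itself, the targeted gene, was at 1.46 to 4.85 TPM in the injured WT libraries and at 0.95 to 2.17 TPM in the KO libraries. Every KO library was below every WT library of its day on D1 (1.28 to 2.17 against 2.76 to 4.85 TPM). The same held on D4 (1 to 1.64 against 2.63 to 3.02 TPM) and D7 (0.95 to 1.37 against 1.80 to 2.51 TPM). On D14 the ranges overlapped (1.27 to 1.96 against 1.46 to 2.26 TPM). The deposited tables do not show which part of the gene was counted. KO D4 replicate 2 stood apart, with 12961 genes at 1 TPM or more against 14380 and 13960 in the other KO D4 libraries and the highest summed level of 8 myofiber markers of its group, 124694 TPM against 62389 and 107457 TPM. WT D1 replicate 3 differed from its group likewise, with 152791 TPM of myofiber markers against 92451 and 75770 TPM, and so did KO D7 replicate 2, with 188016 TPM against 120364 and 122714 TPM. Values without these libraries are given where leaving them out moved a result most.

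Mmp3, Mmp12 and Mmp13 are neighbors in a cluster of metalloproteinase genes on mouse chromosome 9 (mm10, the build named in the submitters' processing notes; GENCODE gene spans chr9:7445822-7455975, chr9:7344381-7369499 and chr9:7272514-7283331, all on the plus strand). The other members lie apart, with Mmp2 at chr8:92827291-92853420, Mmp14 at chr14:54431612-54445364, Mmp19 at chr10:128790910-128800824, Timp1 at chrX:20870166-20874735, Timp2 at chr11:118301069-118355740, Timp3 at chr10:86300372-86349506 and Timp4 at chr6:115241892-115252205. Timp1, Timp3 and Timp4 lie inside the synapsin genes Syn1, Syn3 and Syn2 on the opposite strand. Whether the counting used strand is not given in the sources used here, and these synapsin genes reached at most 2.08, 0.57 and 6.16 TPM in the injured libraries, in that order. Mmp19 overlaps Tmem198b on the opposite strand (2.55 to 14.13 TPM).

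RefSeq promoter windows (GRCm38.p6, 300 bases, from 250 before the start) were matched for 8 of the 10 members. The AP-1 letters TGANTCA, the site of the Fos and Jun factors and the same on both strands, occurred in windows of 3 members, Mmp3, Mmp12 and Mmp13. The same 3 held the TATA box letters TATAAA or its reverse complement TTTATA, and Mmp12 held both only in the window of its downstream start, where the TATA letters began after the start. Among all 32851 windows, 7.81% held the AP-1 letters, 13.6% the TATA box letters and 1.54% both. The stretches are shown because these 3 linked genes share them and because their transcripts, described below, were the lowest of the members in control muscle. They run from 12 bases before the AP-1 letters to the 10th base from the start, with both sets of letters in capitals.
Mmp13, chr9:7272467-7272523, plus strand: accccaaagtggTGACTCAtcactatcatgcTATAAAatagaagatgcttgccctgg
Mmp12, chr9:7347318-7347383, plus strand: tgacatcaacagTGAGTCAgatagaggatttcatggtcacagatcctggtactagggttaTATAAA
Mmp3, chr9:7445764-7445831, plus strand: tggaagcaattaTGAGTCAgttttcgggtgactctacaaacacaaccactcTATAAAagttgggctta
A match to these letters is a description of the sequence and not evidence of binding.

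Mmp2 and Mmp14 were the most abundant proteases and peaked on D4 and D7. Mmp2 encodes gelatinase A, which degrades denatured collagen and basement membrane collagen. In WT muscle Mmp2 was at 75.6, 82.7 and 71.8 TPM on D1, at 237, 368 and 404 TPM on D4, at 413, 347 and 306 TPM on D7 and at 135, 197 and 65.1 TPM on D14. The control libraries held 61.4, 44.8 and 58.6 TPM, below every WT D1 library. Mmp2 thus rose 4.39-fold in mean TPM from D1 to D4 (log2 difference 2.09 ± 0.40 SE, adjusted p = 0.00124), and all D4 and D7 libraries lay above all D1 and D14 libraries. The D4 and D7 libraries overlapped each other, and Mmp2 fell from D7 to D14 by 1.54 ± 0.40 (adjusted p = 0.0122). In KO muscle the values were 79.6, 70.3 and 55.5 TPM on D1, 327, 101 and 228 TPM on D4, 373, 154 and 303 TPM on D7 and 82.2, 79.95 and 109 TPM on D14. The KO course had the same order of days as the WT course, with replicate 2 lowest on both D4 and D7.

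Mmp14 encodes a membrane-anchored collagenase that also activates the Mmp2 precursor at the cell surface. It was at 12.2, 13.1 and 15.3 TPM in control muscle and at 51.9, 73.3 and 27.4 TPM in WT muscle on D1. On D4 it stood at 357, 320 and 311 TPM, on D7 at 295, 191 and 167 TPM and on D14 at 50.4, 52.7 and 17.2 TPM. These groups did not overlap from control to D1, from D1 to D4, from D4 to D7 or from D7 to D14. That held at each step for 71.3%, 29.5%, 42.7% and 63.5% of all genes tested, in that order. Mmp14 rose from control to D1 (1.74 ± 0.32, adjusted p = 0.00359, and 2.12 without WT D1 replicate 3) and again from D1 to D4 (2.78 ± 0.57, adjusted p = 0.00204), and it fell from D7 to D14 (-2.53 ± 0.57, adjusted p = 0.00805). The D7 libraries were lower than the D4 libraries without passing the test (-0.63 ± 0.57, adjusted p = 0.443). In KO muscle Mmp14 was at 84.2, 61.1 and 90.8 TPM on D1, at 262, 35.2 and 160 TPM on D4, at 225, 70.7 and 182 TPM on D7 and at 34.5, 29.2 and 33.8 TPM on D14. Among the KO D4 libraries, replicate 2 was below every KO D1 library and the other libraries were above them.

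Mmp13, the main interstitial collagenase of rodents, was highest on D4 and D7 and at 1.98 TPM or less in all other libraries. Control muscle held 0.10, 0.04 and 0.03 TPM. The WT libraries held 1.70, 1.80 and 0.23 TPM on D1, 4.3, 23.9 and 10.1 TPM on D4, 22.8, 12.7 and 3.40 TPM on D7 and 0.13, 0.13 and 0.02 TPM on D14. Every D4 and D7 library was above every D1 and D14 library, although libraries of one day differed severalfold. Mmp13 rose from D1 to D4 by 2.43 ± 0.74 (adjusted p = 0.0252) and differed from D7 to D14 by -3.37 ± 0.74 (adjusted p = 0.00748). In KO muscle Mmp13 was at 1.98, 0.87 and 0.61 TPM on D1, 2.98, 0.10 and 6.98 TPM on D4, 8.30, 0.25 and 2.41 TPM on D7 and 0.02, 0.15 and 0.32 TPM on D14. The KO D4 and D7 libraries overlapped the KO D1 libraries, and replicate 2 was again the lowest on both days.

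Mmp3, Mmp19 and Mmp12 rose on D1 and were called as higher in no later step. Mmp3 encodes stromelysin-1, which degrades proteoglycans and laminin and activates other metalloproteinases. It was at 0.93, 0.61 and 1.05 TPM in control muscle, at 10.3, 19.97 and 9.47 TPM on WT D1, at 12.96, 8.99 and 7.16 TPM on D4, at 9.07, 6.36 and 7.68 TPM on D7 and at 2.10, 5.69 and 0.88 TPM on D14. All D1 libraries exceeded all control libraries (2.87 ± 0.29, adjusted p = 0.00101), and all D14 libraries were below all D7 libraries (-1.35 ± 0.48, adjusted p = 0.0411). KO muscle held 10.7, 8.98 and 18.6 TPM on D1, 11.45, 2.97 and 14.5 TPM on D4, 9.1, 2.98 and 7.02 TPM on D7 and 1.63, 1.6 and 1.67 TPM on D14. The KO D14 libraries were the lowest of the KO course and lay close together.

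Mmp19, a secreted enzyme that cuts basement membrane components, was at 2.33, 1.87 and 1.88 TPM in control muscle and at 28.0, 41.7 and 8.58 TPM on WT D1. It stood at 23.7, 19.8 and 17.4 TPM on D4, at 14.96, 12.2 and 10.7 TPM on D7 and at 2.55, 4.07 and 1.33 TPM on D14. Mmp19 rose on D1 (2.92 ± 0.48, adjusted p = 0.00260) and fell from D7 to D14 (-1.96 ± 0.53, adjusted p = 0.0146), where the D14 libraries overlapped the range of control muscle in the other table. In KO muscle it was at 59.9, 39.8 and 29.25 TPM on D1, 22.5, 3.03 and 13.2 TPM on D4, 10.7, 4.84 and 9.93 TPM on D7 and 2.74, 3.08 and 2.58 TPM on D14. The KO D4 libraries were all below the KO D1 libraries (-1.94 ± 0.53, adjusted p = 0.0177). Without KO D4 replicate 2 this fall was -1.21 and not called (adjusted p = 0.0963), and without KO D1 replicate 1 it was -1.67 (adjusted p = 0.0768).

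Mmp12 encodes macrophage metalloelastase, which degrades elastin. It was listed at 0, 0.05 and 0.01 TPM in the control libraries and at 9.34, 14.8 and 6.27 TPM on WT D1 (3.38 ± 0.29, adjusted p = 0.000528). Later values spread widely within a day, at 53.7, 5.48 and 1.87 TPM on D4 and at 26.25, 35.3 and 3.54 TPM on D7, before 0.25, 5.39 and 0.03 TPM on D14. Mmp12 fell from D7 to D14 (-3.03 ± 0.97, adjusted p = 0.0263) although 1 D14 library lay above 1 D7 library. KO muscle held 11.7, 7.94 and 7.43 TPM on D1, 8.55, 0.47 and 9.41 TPM on D4, 5.61, 13.8 and 10.95 TPM on D7 and 1.84, 0.33 and 0.34 TPM on D14. The SD within groups, pooled over the injured groups, was 1.29 on the log2 scale for Mmp12. That is above the value of 98.6% of the genes tested, against a median of 0.31 over all of them. The 6 macrophage markers, whose part in this spread was not tested, summed to 2688, 1529 and 1244 TPM in WT D4 replicates 1, 2 and 3, which is the same order as Mmp12. On KO D4 the orders differed. There the macrophage sum was highest in replicate 1 (1530 TPM) and Mmp12 in replicate 3, and both were lowest in replicate 2.

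**Figure D1:**
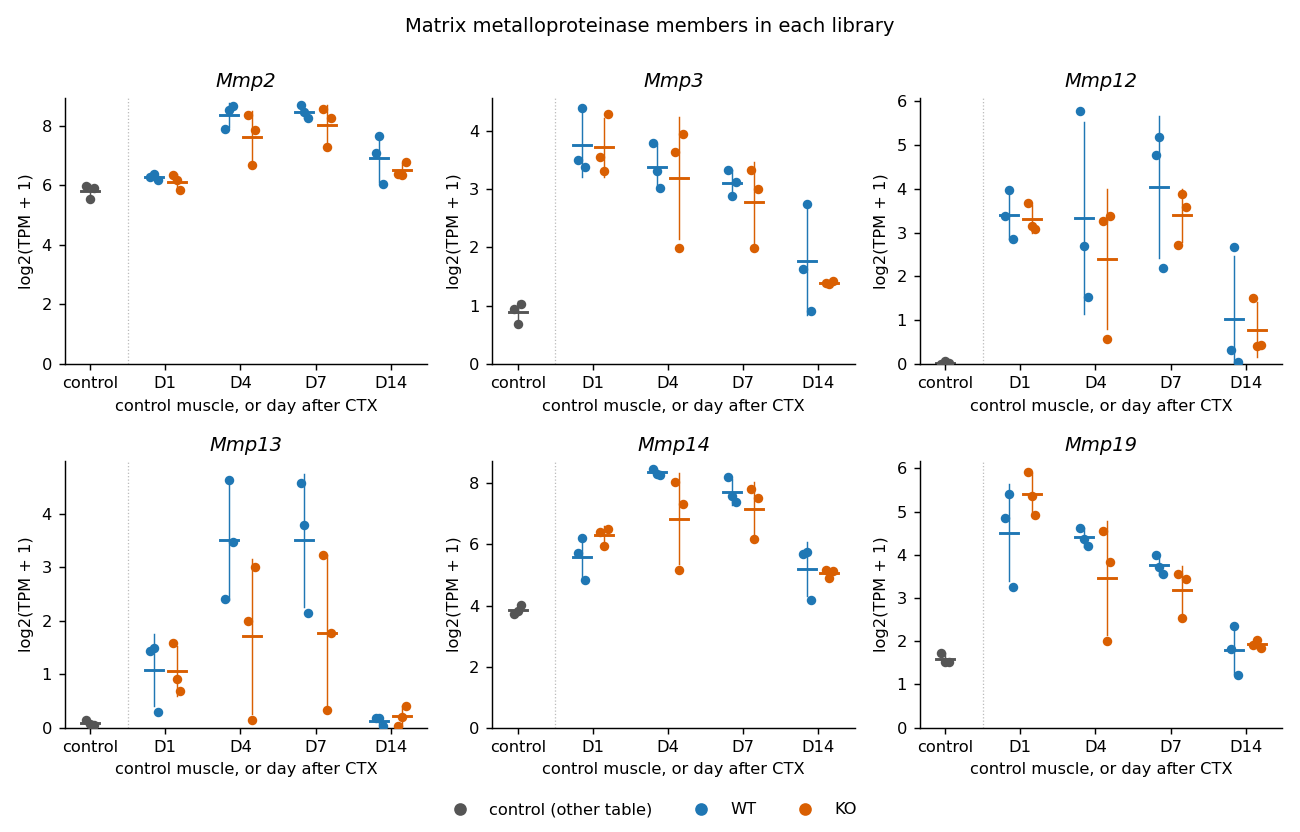
Abundance of the 6 metalloproteinase members in each library, as log2(TPM + 1) on the vertical axis, for control muscle (gray, from the control table) and for WT (blue) and KO (orange) muscle by day after CTX; points are libraries, horizontal bars group means and vertical bars 1 SD, cut off at 0. Mmp2, Mmp13 and Mmp14 were highest on D4 and D7, whereas Mmp3, Mmp12 and Mmp19 were already high on D1, and KO D4 replicate 2 was the lowest D4 library for all 6 genes.

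The 4 TIMP genes followed 4 different courses. Timp1, an inducible secreted inhibitor, changed most. It was at 3.60, 2.80 and 4.38 TPM in control muscle and at 242, 344 and 64.0 TPM on WT D1, a 60.4-fold difference in mean TPM (log2 difference 5.28 ± 0.54, adjusted p = 0.000988). The WT libraries held 247, 123.14 and 128 TPM on D4, 99.1, 50.5 and 44.8 TPM on D7 and 5.33, 5.10 and 1.62 TPM on D14. The D1 and D4 libraries overlapped, the D7 libraries lay below all D4 libraries without passing the test (-1.36 ± 0.67, adjusted p = 0.161), and the D14 libraries were far below the D7 libraries (-3.73 ± 0.67, adjusted p = 0.00384). The D14 range of 1.62 to 5.33 TPM enclosed the control range of the other table, 2.80 to 4.38 TPM. In KO muscle Timp1 was at 492, 318 and 339 TPM on D1, 116, 14.95 and 68.9 TPM on D4, 58.3, 15.96 and 62.05 TPM on D7 and 9.23, 6.54 and 10.1 TPM on D14. It had fallen in KO muscle by D4 (-2.89 ± 0.67, adjusted p = 0.00695), and without KO D4 replicate 2 the difference was -2.06 (adjusted p = 0.0348). The D1 call against control held whichever library was left out (4.79 to 5.99), as did that from D7 to D14 (-3.95 to -3.31).

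Timp2 encodes an inhibitor that also brings the Mmp2 precursor to Mmp14 for activation. It was at 86.4, 58.6 and 85.2 TPM in control muscle and, in the same table, at 81.9, 97.2 and 67.1 TPM on WT D1, which overlapped (0.10 ± 0.21, adjusted p = 0.692). The injured table gave 76.1, 104 and 73.3 TPM for the same D1 libraries, 290, 271 and 299 TPM on D4, 247, 210 and 185 TPM on D7 and 124, 196 and 63.2 TPM on D14. Timp2 rose 3.39-fold in mean TPM from D1 to D4 (1.77 ± 0.33, adjusted p = 0.00114), with no overlap. From D7 to D14 it differed by -0.88 ± 0.33 (adjusted p = 0.0509), and a D14 library lay within the D7 range. In KO muscle it was at 83.5, 80.6 and 64.2 TPM on D1, 264, 122 and 215 TPM on D4, 249, 116 and 197 TPM on D7 and 94.6, 97.2 and 119 TPM on D14. Timp2 rose from D1 to D4 in KO muscle as well (1.32 ± 0.33, adjusted p = 0.0111).

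Timp3, an inhibitor that stays bound to the matrix and also blocks several ADAM proteases, varied least. It was at 33.9, 30.3 and 37.0 TPM in control muscle, at 38.7, 34.6 and 43.7 TPM on WT D1, at 27.3, 19.96 and 23.15 TPM on D4, at 47.7, 47.55 and 46.3 TPM on D7 and at 32.2, 67.1 and 55.0 TPM on D14. Timp3 was lower on D4 than on D1 (-0.71 ± 0.20, adjusted p = 0.0171) and higher on D7 than on D4 (0.99 ± 0.20, adjusted p = 0.00876), without overlap at either step. KO muscle held 34.6, 28.3 and 27.7 TPM on D1, 34.3, 39.6 and 25.8 TPM on D4, 49.4, 41.4 and 42.8 TPM on D7 and 49.6, 48.1 and 46.7 TPM on D14. There the D4 and D1 libraries overlapped. The difference of that step between genotypes (KO step minus WT step) was 0.83 ± 0.29 and did not pass the test (unadjusted p = 0.00895, adjusted p = 0.204).

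Timp4, the TIMP known from heart and skeletal muscle, fell after injury and returned late. Control muscle held 32.7, 30.5 and 37.3 TPM and WT D1 muscle 4.10, 1.96 and 6.47 TPM (-2.83 ± 0.32, adjusted p = 0.00114). WT values were 0.78, 0.31 and 4.32 TPM on D4, 9.49, 9.05 and 8.75 TPM on D7 and 10.02, 22.85 and 26.35 TPM on D14, and every D14 library was still below every control library of the other table. Timp4 rose from D4 to D7 (2.12 ± 0.56, adjusted p = 0.0232). In KO muscle Timp4 was at 8.12, 10.98 and 2.25 TPM on D1, 4.78, 18.01 and 3.86 TPM on D4, 13.1, 8.27 and 9.86 TPM on D7 and 21.6, 16.1 and 19.5 TPM on D14. Its highest D4 value was that of KO D4 replicate 2, the library with the highest myofiber markers of its group.

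**Figure D2:**
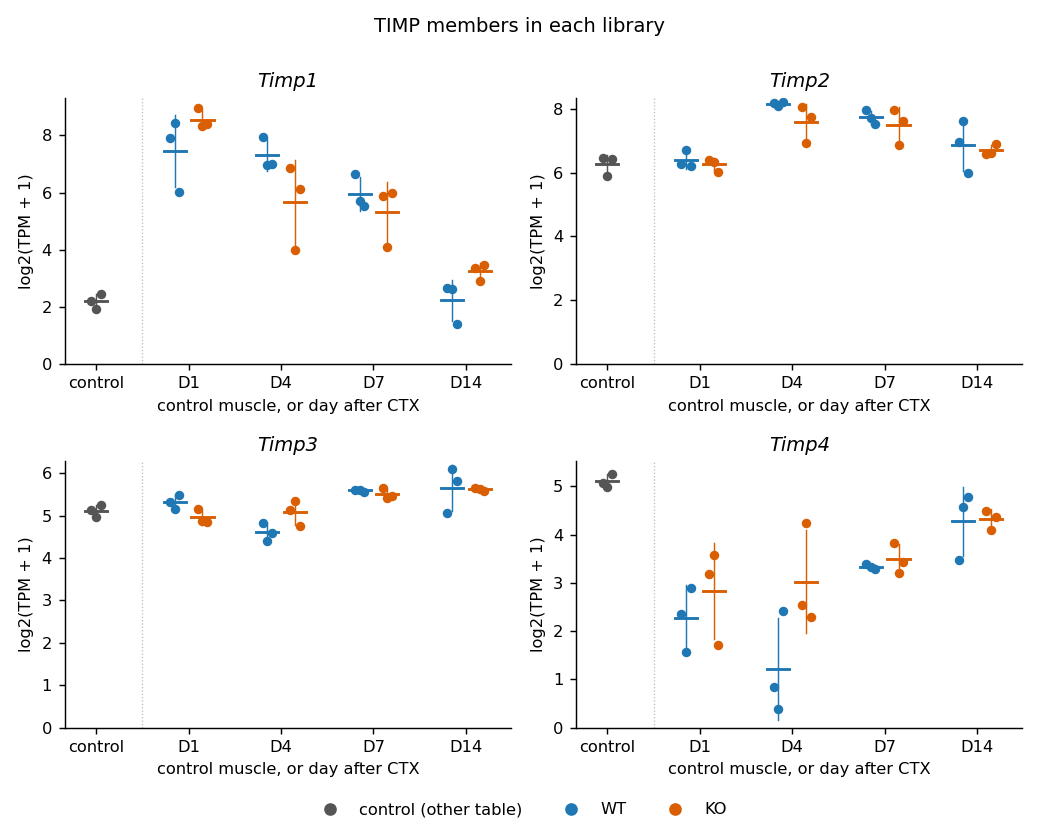
Abundance of the 4 TIMP members in each library, as log2(TPM + 1) on the vertical axis, for control muscle (gray, from the control table) and for WT (blue) and KO (orange) muscle by day after CTX; points are libraries, horizontal bars group means and vertical bars 1 SD. Among the means of the injured groups, Timp1 was highest on D1 and lowest on D14 in both genotypes. Timp2 peaked on D4, Timp3 stayed within a narrow range, and Timp4 was lowest early after injury.

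To see which steps of injury and repair moved the members, the calls were counted against those over all genes. Of the 9 members tested in WT D1 against control muscle, 6 were higher (Mmp2, Mmp3, Mmp12, Mmp14, Mmp19 and Timp1) and 1 was lower (Timp4), and Timp2 and Timp3 were not called. Over all 13041 genes, 61.1% were called, 55.4% higher and 5.64% lower, and the median difference was 0.66. Mmp13 did not pass the filter of 1 TPM in 3 libraries, and Mmp12 and Mmp3 passed it through the WT D1 libraries, so a difference of these was needed for their entry into the test. The call of Mmp2 was the least firm (0.49 ± 0.17, adjusted p = 0.0377): it was lost on leaving out any library other than WT D1 replicate 3 (adjusted p from 0.0608 to 0.127). After scaling to the median of gene ratios, calls over all genes were 2771 higher and 2763 lower in place of 7229 and 736, and Mmp2 (-0.29), Timp2 (-0.68, adjusted p = 0.0141) and Timp3 (-0.57) were lower on D1, whereas the other 6 members tested kept their direction. The study describes separate batches for injured against uninjured muscle and for the time course, and it is not stated to which the WT D1 libraries, present in both tables, belong. Batch therefore cannot be told apart from injury in this comparison, or else from day and genotype in those of WT D1 with the time course.

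From WT D1 to D4, 4 of 10 members rose (Mmp2, Mmp13, Mmp14 and Timp2) and Timp3 fell. Over all genes 19.8% were called in this step, 14.6% higher and 5.27% lower, with a median difference of 0.17. Mmp3, Mmp12, Mmp19, Timp1 and Timp4 were not called, with -1.06 ± 0.56 for Timp4 (adjusted p = 0.198) and -0.15 ± 0.67 for Timp1 (adjusted p = 0.906). Leaving out WT D1 replicate 3 or WT D4 replicate 2 left 3 calls, Mmp2, Mmp14 and Timp2, since Mmp13 (adjusted p = 0.115 and 0.125) and Timp3 (adjusted p = 0.0772 and 0.0785) lost theirs. Mmp13 also lost its call without WT D4 replicate 3 (adjusted p = 0.0538), and Timp4 was called as lower without that library (-1.66, adjusted p = 0.0471). Under median-of-ratios scaling the calls over all genes were 1821 higher and 2094 lower in place of 2292 and 828.

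From WT D4 to D7, which shares the D4 libraries with the preceding step, Timp3 and Timp4 rose and none of the 6 proteases was called. Over all genes 12.3% were called, and 3.04% were higher, with a median of -0.24. The call of Timp4 was lost without WT D4 replicate 1 (adjusted p = 0.109), WT D4 replicate 2 (adjusted p = 0.0719), WT D7 replicate 2 (adjusted p = 0.0823) or WT D7 replicate 3 (adjusted p = 0.0853). Calls over all genes were 928 higher and 918 lower under median-of-ratios scaling in place of 478 and 1463.

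From WT D7 to D14, 7 members fell, the 6 proteases and Timp1. Over all genes 31.8% were called in this step and 30.9% were lower, with a median difference of -0.45. The differences of the 7 ran from -3.73 (Timp1) to -1.35 (Mmp3). Timp4 differed by 0.94 ± 0.56 and Timp2 by -0.88 ± 0.33, neither called. Only Timp1 was still called after leaving out WT D14 replicate 3 (-3.31, adjusted p = 0.0336) or WT D7 replicate 1 (-3.38, adjusted p = 0.0287), and the other 6 had adjusted p from 0.0512 to 0.203 and from 0.0513 to 0.134, respectively. The calls of Mmp3 and Mmp12 were less firm than the others: leaving out each of the 6 libraries in turn ended that of Mmp3 in 5 cases (adjusted p from 0.0619 to 0.203, all but WT D14 replicate 2) and that of Mmp12 in 4 (adjusted p from 0.0781 to 0.123, all but WT D14 replicate 2 and WT D7 replicate 3). Both were also lost under median-of-ratios scaling, quantile normalization and no filter on low values. Median-of-ratios scaling gave 804 genes higher and 1353 lower in place of 145 and 4855, and kept the calls of 4 members.

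In KO muscle, Mmp2 and Timp2 rose and Mmp19 and Timp1 fell from D1 to D4, which is 4 of 10 members. Over all genes 19.4% were called, 7.18% higher and 12.2% lower, with a median of -0.15. Mmp14 (0.55 ± 0.57, adjusted p = 0.503) and Mmp13 (0.65 ± 0.74, adjusted p = 0.542) were not called. Without KO D1 replicate 3 the calls of Mmp2 (adjusted p = 0.0701) and Timp2 (adjusted p = 0.0598) were lost, which left 2 members, and without KO D4 replicate 2 Mmp14 differed by 1.39 (adjusted p = 0.0615). No member was called from KO D4 to D7, where limma called 0 genes (0%) and 1555 had an unadjusted p under 0.05. No member was called from KO D7 to D14 either, where 0.56% of genes were called and 3035 had an unadjusted p under 0.05, with differences of -1.53 ± 0.40 for Mmp2 (adjusted p = 0.0834), -2.10 ± 0.57 for Mmp14 (adjusted p = 0.0958) and -2.07 ± 0.67 for Timp1 (adjusted p = 0.138). Without KO D7 replicate 2 these 3 were called (Mmp2 -1.90, Mmp14 -2.61 and Timp1 -2.69, the highest adjusted p being 0.0491). Over all genes, median-of-ratios scaling gave 127 higher and 305 lower for that step in place of 13 and 75.

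**Figure D3:**
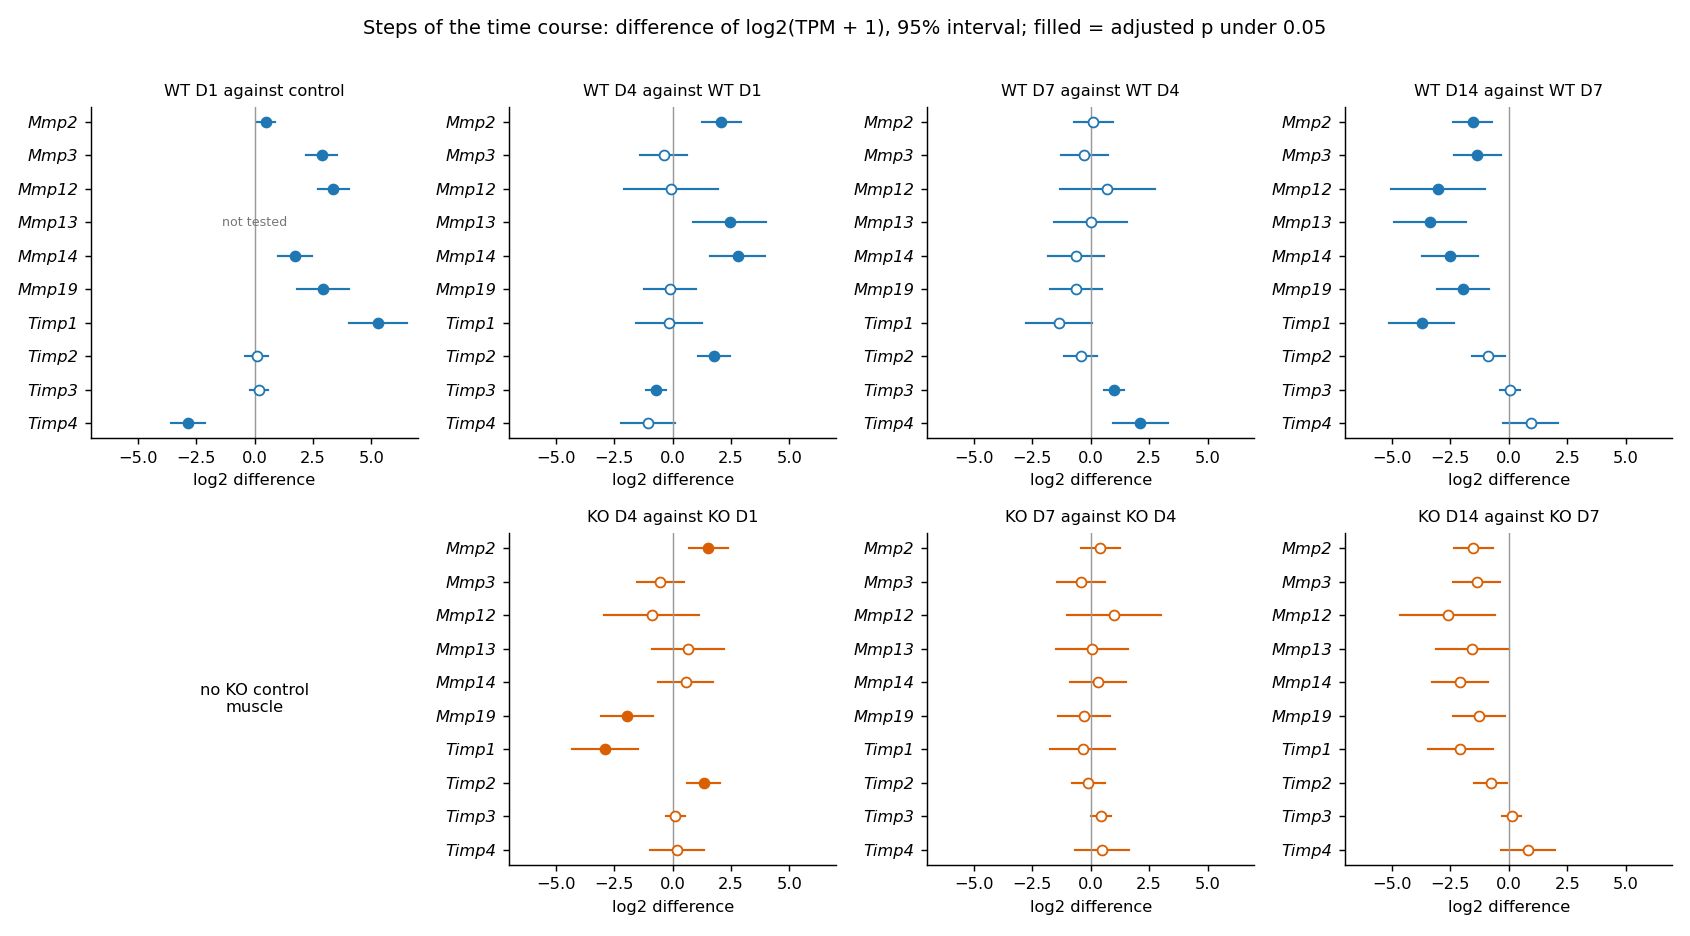
Difference of log2(TPM + 1) for each member between successive groups, in WT muscle (upper row) and KO muscle (lower row), with the 95% interval as a line; filled points had an adjusted p under 0.05. In WT muscle 5 proteases were called as higher from control to D1, where Mmp13 was not tested. From D1 to D4, 3 were called as higher (Mmp2, Mmp13 and Mmp14), and all 6 fell from D7 to D14. In KO muscle 4 members were called, all from D1 to D4.

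The summed abundance of the 6 proteases and that of the 4 inhibitors were both highest on D4 in WT muscle in the mean and differed in the size of their rise. In WT muscle the protease sum was 177, 234 and 124 TPM on D1, 689, 746 and 752 TPM on D4, 781, 605 and 499 TPM on D7 and 191, 265 and 84.5 TPM on D14. The TIMP sum was 361, 485 and 187 TPM on D1, 565, 414 and 455 TPM on D4, 404, 317 and 284 TPM on D7 and 171, 291 and 146 TPM on D14. The ratio of the sums was therefore lowest on D1 (0.490, 0.483 and 0.660), beside 0.485 ± 0.0142 (SD, n = 3) in control muscle, and highest on D7 (1.87 ± 0.0981), when every library had more protease than TIMP transcript. The KO ratio went from 0.433 ± 0.0329 on D1 to 1.21 ± 0.417 on D4 and 1.58 ± 0.185 on D7 before it fell to 0.713 ± 0.0389 on D14. The WT ratio on D14 was 0.868 ± 0.270. All D14 libraries of both genotypes were above the control range of 0.469 to 0.495. The D4 spread came with KO D4 replicate 2, whose ratio was 0.734 against 1.51 and 1.38. On D7 the KO ratios (1.71, 1.36 and 1.65) were all below the WT ratios (1.94, 1.91 and 1.75). These ratios were not tested and describe transcripts, not proteins.

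The makeup of both sums shifted with time. Mmp2 was 79.8%, 74.1% and 76.3% of the protease sum in control muscle and 42.7%, 35.3% and 58.0% on WT D1, when Mmp19 was 15.9%, 17.8% and 6.94%. On WT D4, Mmp14 was 51.8%, 42.9% and 41.3% of the sum. By D14 Mmp2 was again 70.9%, 74.4% and 77.03%. Among the inhibitors Timp1 was 2.30%, 2.29% and 2.67% of the sum in control muscle and 67.0%, 70.9% and 34.2% on WT D1. Timp2 was the largest part in every library of control muscle (55.2%, 48.0% and 52.0%) and of WT D14 (72.2%, 67.3% and 43.2%).

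**Figure D4:**
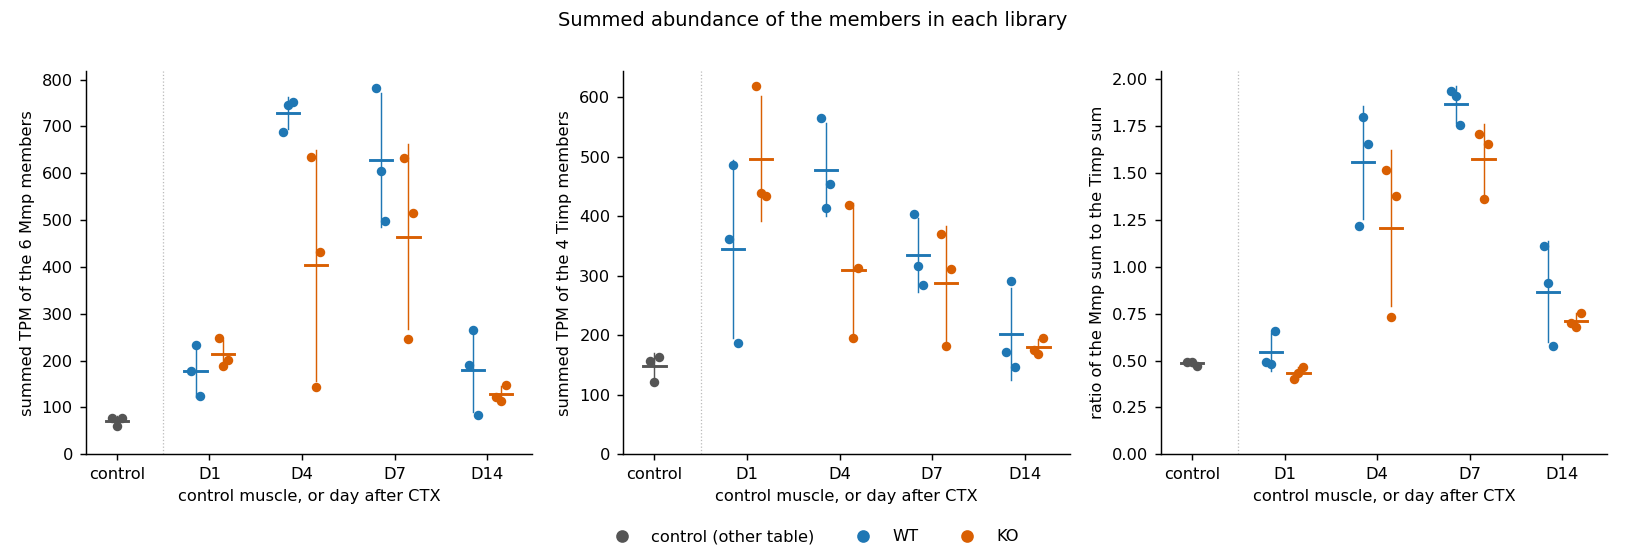
Summed TPM of the 6 metalloproteinase members (left), summed TPM of the 4 TIMP members (middle) and the ratio of both sums (right) in each library of control (gray), WT (blue) and KO (orange) muscle by day after CTX; points are libraries, horizontal bars group means and vertical bars 1 SD. The ratio was between 0.40 and 0.66 on D1 in both genotypes and exceeded 1 in all D7 libraries.

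To see whether the loss of Gsdme altered these genes, KO and WT muscle were compared on each day. No member was called on any day. Over all 15718 genes, limma called 1 (0.00636%) on D1 and 0 (0%) on D4, D7 and D14, while 845, 3568, 481 and 324 genes, respectively, had an unadjusted p under 0.05. On D4 all 6 proteases were lower in KO muscle in the mean, with a median difference of -0.94 against -0.28 over all genes, of which 76.2% were lower. Without KO D4 replicate 2, 5 of the 6 were lower and the median was -0.24, against -0.11 over all genes. The D4 libraries of Mmp14 (35.2 to 262 TPM in KO and 311 to 357 TPM in WT), Timp1 (14.95 to 116 and 123.14 to 247 TPM) and Timp2 (122 to 264 and 271 to 299 TPM) did not overlap, which held for 14% of all genes tested. Their differences were -1.52 ± 0.57 (unadjusted p = 0.0153, adjusted p = 0.212), -1.64 ± 0.67 (unadjusted p = 0.0241, adjusted p = 0.212) and -0.58 ± 0.33 (adjusted p = 0.259), so none passed the test. Mmp13 differed by -1.80 ± 0.74 (adjusted p = 0.212), with overlap, and Timp4 was the only member with a difference above 1 in the other direction (1.81 ± 0.56, unadjusted p = 0.00422, adjusted p = 0.212). Without KO D4 replicate 2 the differences shrank to -0.68 for Mmp14, -0.81 for Timp1, -0.27 for Timp2, -1.01 for Mmp13 and 1.195 for Timp4, with adjusted p of 0.905 or more.

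Markers of other cells differed in the same libraries. On D4 the 6 macrophage markers summed to 1530, 258 and 1276 TPM in KO muscle and to 2688, 1529 and 1244 TPM in WT muscle, and all 6 were lower in KO muscle in the mean (median -1.07, or -0.29 without KO D4 replicate 2). The 7 FAP markers summed to 7378, 1784 and 4992 TPM in KO muscle and to 6647, 6556 and 7323 TPM in WT muscle, with 5 of 7 lower, or 3 of 7 without KO D4 replicate 2. Over all genes 76.2% were lower, or 66.9% without that library. The FAP median of -0.30 was near that of all genes, -0.28. The 8 myofiber markers were all higher in KO muscle (median 0.71), as were the 4 adipocyte and 3 Schwann cell markers (medians 1.06 and 1.31), and these signs were the same without KO D4 replicate 2. None of these was called, and their part in the differences of the proteases was not tested. In bulk muscle, fewer cells of a type and less RNA per cell cannot be told apart.

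On the other days Timp1 and Mmp13 differed most. On D1 Timp1 differed by 1.10 ± 0.67 between KO and WT muscle (adjusted p = 0.873) with overlap, and by 0.38 without WT D1 replicate 3. On D7 Mmp13 differed by -1.73 ± 0.74 (unadjusted p = 0.0304, adjusted p = 0.776), or by -1.003 without KO D7 replicate 2. All 6 proteases were lower in KO muscle in the mean on D7, as were 79% of all genes. The median difference was -0.57 for the proteases and -0.19 over all genes. Without KO D7 replicate 2, Mmp2 differed by -0.07, Mmp14 by -0.06 and Mmp19 by -0.26, and Mmp3 was higher in KO muscle (0.06). On D14 the KO libraries of Timp1 (9.23, 6.54 and 10.1 TPM) all lay above the WT libraries (5.33, 5.10 and 1.62 TPM), with a difference of 1.03 ± 0.67 (adjusted p = 1). Such separation of the D14 libraries held for 8.42% of all genes tested. Among cell markers on D14, the 4 adipocyte markers summed to 38.6 to 160 TPM in KO and 5.59 to 10.75 TPM in WT muscle, and the neutrophil markers to 4.36 to 7.46 and 1.58 to 2.26 TPM, with Ly6g at 0 in all 6 libraries. Their part in the Timp1 values was not tested. Averaged over days, 1 gene (0.00636%) and no member was called (556 genes at an unadjusted p under 0.05), with the lowest unadjusted p for Mmp13 (-0.86 ± 0.37), Timp4 (0.64 ± 0.28) and Mmp2 (-0.44 ± 0.20), each at an adjusted p of 0.861.

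Whether the steps themselves differed between genotypes was tested as an interaction. No gene (0%) was called for the steps from D1 to D4, D4 to D7 or D7 to D14, where the unadjusted p was under 0.05 for 3667, 445 and 486 genes, in that order. From D1 to D4 the interaction was -2.74 ± 0.95 for Timp1 (unadjusted p = 0.00932), -2.22 ± 0.81 for Mmp14 (unadjusted p = 0.0123) and -1.83 ± 0.75 for Mmp19 (unadjusted p = 0.0252), all at an adjusted p of 0.204. These were -1.91, -1.39 and -1.10 without KO D4 replicate 2, and -2.02, -1.84 and -1.199 without WT D1 replicate 3. The calls of Mmp14 and Mmp13 in WT and not in KO muscle are therefore not shown to be a difference between genotypes.

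**Figure D5:**
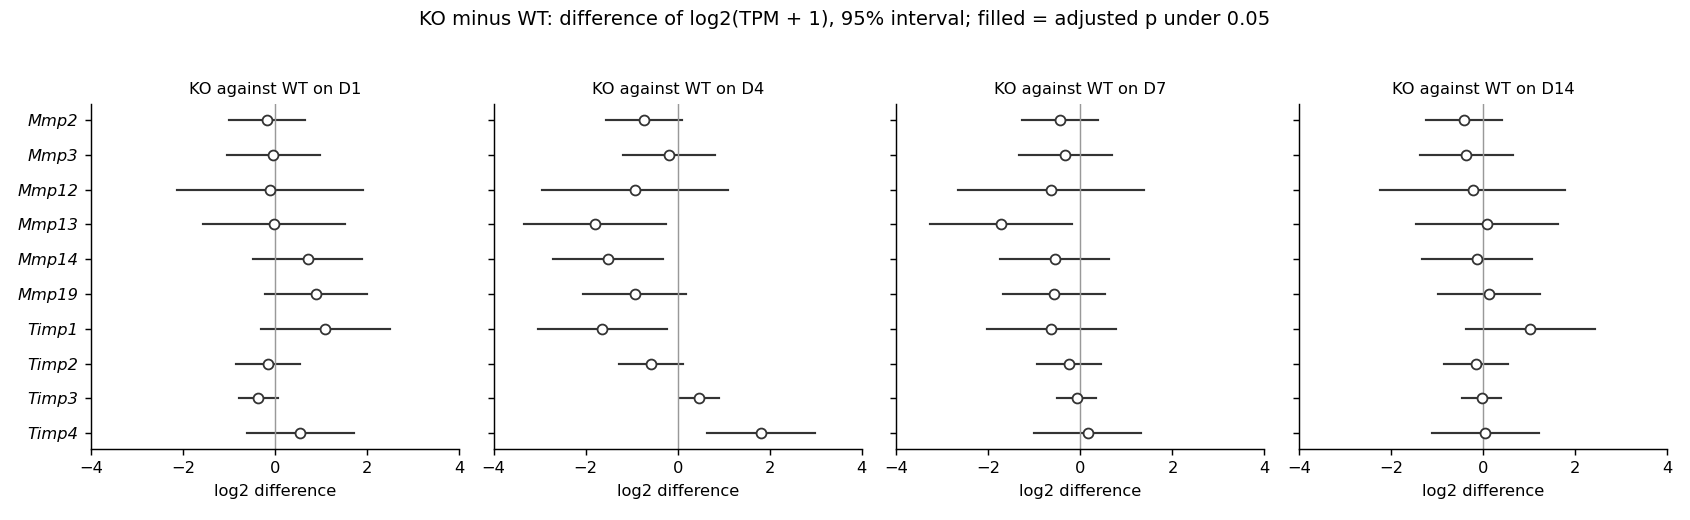
Difference of log2(TPM + 1) between KO and WT muscle for each member on D1, D4, D7 and D14, with the 95% interval as a line; open points did not pass an adjusted p of 0.05. No point is filled, the 6 proteases and Timp1 and Timp2 lay below 0 on D4, and Timp3 and Timp4 lay above.

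To set the members in their pathway, 4 further lists of proteolysis genes were examined. On WT D1 against control muscle, 13 of 19 ADAM and ADAMTS proteases tested were higher, led by Adam8 (4.87), Adam12 (2.61) and Adamts4 (1.70), the last an aggrecanase. Of the 8 genes tested of the plasminogen system, the serine protease cascade that also activates metalloproteinases, 6 were higher, among them Plaur, the urokinase receptor (4.38), and Anxa2 (2.42). Of 6 other metalloproteinases tested, 3 were higher, the neutrophil and macrophage enzymes Mmp9 (2.17) and Mmp8 (2.08) and Mmp23 (1.14). Mmp8, Plaur and 6 of the 13 ADAM and ADAMTS genes, among them Adam8, Adam12 and Adamts4, were at 1 TPM or more in fewer than 3 control libraries and passed the filter through the WT D1 libraries, so these counts are a description only. Of 7 other regulators, 3 were higher (Cd44, 3.73; Lrp1, an endocytic receptor that clears proteases, 1.70; Furin, which activates membrane-type metalloproteinases, 1.29) and Pcsk6 was lower (-0.63). Over all genes 55.4% were called higher and 5.64% lower. The 3 of 6 other metalloproteinases and 3 of 7 regulators that were higher did not exceed that share. The list medians of 1.10, 1.73, 0.81 and 0.37 stood beside 0.66 over all genes.

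From WT D1 to D4 other proteases rose alongside Mmp2 and Mmp14. Of 25 ADAM and ADAMTS genes, 13 were higher and 1 lower, led by Adam19 (2.19), Adamts14, a procollagen N-proteinase (2.11), and Adamts15 (1.89). Of 10 other metalloproteinases, 4 were higher and 1 lower, with Mmp23 (2.76), Mmp11 (2.28) and the neutrophil collagenase Mmp8 (-1.31) first. Of the plasminogen system only Plat, tissue plasminogen activator, was called (2.19), and of the regulators only Pcsk5 (1.28). Over all genes 14.6% were higher and 5.27% lower, so the 1 of 9 plasminogen genes and 1 of 7 regulators were near that share. No gene of the 4 lists was called from WT D4 to D7, where 12.3% of all genes were. From WT D7 to D14, where 30.9% of all genes were called as lower, the calls in these lists were 19 of 25 ADAM and ADAMTS genes (Adam12, -3.36; Adamts4, -2.15; Adam8, -2.004), 6 of 9 plasminogen genes (among them Plaur, -1.85, and Anxa2, -1.75), 5 of 7 regulators (Cd44, -3.12; Lrp1, -1.12; Furin, -0.95) and 4 of 10 other metalloproteinases (Mmp23, -1.87; Mmp16, -1.69; Mmp11, -1.30), and none was higher. The 4 of 10 other metalloproteinases are close to the share over all genes.

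In KO muscle, genes of these lists moved in both directions from D1 to D4. Over all genes 7.18% were called higher and 12.2% lower in that step. From KO D1 to D4, Mmp9 (-3.06) and Mmp8 (-3.03) were lower and Mmp23 (1.604) was among the 4 other metalloproteinases that were higher. Of the plasminogen system 3 genes were lower, among them Plaur (-2.27) and Plau, urokinase (-1.19), and 1 gene was higher. Of the ADAM and ADAMTS genes 6 were higher and 4 lower, with Adam8 (-3.56), Adamts15 (1.61) and Adamts2, a procollagen N-proteinase (1.11), first, and of the regulators Pcsk6 (1.37) and Bsg (0.50) were higher. Between genotypes on D4 no gene of the 4 lists was called, and 10 of 10, 24 of 25, 8 of 9 and 5 of 7 were lower in KO muscle in the mean for other metalloproteinases, ADAM and ADAMTS genes, the plasminogen system and regulators. Beside these stand 76.2% of all genes, and without KO D4 replicate 2 the counts were 10, 21, 6 and 6 beside 66.9% of all genes.

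The members' courses were compared with each other and with all genes by the root mean square difference (RMS) of 8 group means of log2(TPM + 1), each gene centered on its own mean. All groups come from the same 24 libraries, so likeness can reflect shared cells or library makeup. The nearest pairs of members were Mmp2 and Timp2 (0.32), Mmp13 and Mmp14 (0.36) and Mmp3 and Mmp19 (0.47), and the farthest were Timp1 and Timp4 (2.84). The spread of a gene about its own mean on this scale was from 0.35 for Timp3 to 2.01 for Timp1. Nearest to Mmp2 were Ssc5d (0.14), Ctsk, the collagen-degrading cathepsin K (0.17), and Dkk3 (0.19), and nearest to Mmp14 were AW551984 (0.19), Col5a2, a fibrillar collagen chain (0.21), and Fstl1 (0.22). For Mmp13 they were AW551984 (0.35), Mmp14 itself (0.36) and Ptk7 (0.38), and for Timp2 Nbl1 (0.07), Fbln5, an elastic fiber protein (0.13), and Gbgt1 (0.13).

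The early members had other neighbors. Mmp3 was nearest to Lgals9 (0.18), Rnf213 (0.21) and S100a10 (0.21), and the genes near Mmp19 included Litaf (0.14) and Pbk, a mitotic kinase (0.16). Timp1 was nearest to Lgals3, galectin-3 (0.46), Cdk1 (0.47) and Bcl2a1b (0.48), and Mmp12 to Fam167b (0.48), Cpne2 (0.50) and Apln (0.50). Timp3 was nearest to Cacna2d1, a calcium channel subunit of muscle (0.06), 5730455P16Rik (0.09) and Cpeb3 (0.10). Timp4 was nearest to Scn4b, a sodium channel subunit (0.31), Ckmt2, the creatine kinase of muscle mitochondria (0.34), and Gm29216 (0.35).

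Markers of cell types moved with the members through the time course. The macrophage markers summed to 99.6 to 131 TPM in control muscle and, in WT muscle, to 407 to 1353 TPM on D1, 1244 to 2688 TPM on D4, 575 to 748 TPM on D7 and 84.6 to 244 TPM on D14. The FAP markers summed to 860 to 1109 TPM in control muscle and to 1130 to 1856, 6556 to 7323, 4167 to 5723 and 876 to 2465 TPM on WT D1, D4, D7 and D14, and 5 of 7 rose from D1 to D4. The neutrophil markers summed to 2.04 to 4.89 TPM in control muscle, 57.4 to 614 TPM on WT D1 and 1.58 to 2.26 TPM on WT D14, with Ly6g listed at 0 in all control libraries. The myofiber markers summed to 146542 to 159263 TPM in control muscle and to 39482 to 82132 TPM on WT D4, so fiber transcripts were present throughout. From control muscle to WT D4 the sums went from 132 to 152 TPM to 160 to 209 TPM for endothelial markers, from 179 to 196 TPM to 513 to 943 TPM for pericyte and smooth muscle markers, from 133 to 276 TPM to 172 to 446 TPM for tendon markers, from 53 to 60 TPM to 15.8 to 74.7 TPM for adipocyte markers and from 290 to 435 TPM to 72.6 to 306 TPM for Schwann cell markers. The part of these cells in the changes of the members was not tested.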

How the data were processed

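Muscle mRNA of 27 libraries was sequenced as paired-end Illumina reads, per the labels. The authors deposited TPM per gene and library, in a table of 24 injured libraries and a table of 3 control and the 3 WT D1 libraries. The deposited group means equaled the library means within 3.33e-05 and were not used. The genome was mm10 per the submitters' processing notes, and the aligner and counter are not given in the sources used here. Depth is unknown from TPM, so that no detection limits were computed. The WT D1 libraries differed between tables by up to 0.508% for the members, except Timp2 (9.23%), and tables were tested separately. No replicate pair shared more than 0.361% identical values.

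Groups were taken from the titles. Values were tested as log2(TPM + 1), for genes at 1 TPM or more in at least 3 libraries (15718 and 13041 genes, with 10 and 9 members), by limma 3.58.1 (R 4.3.3) with a variance trend, 8 or 2 group means and two-sided contrasts. The fold changes understate changes of low genes. The procedure was tested on simulated data. Named genes were the members, up to 3 called genes per proteolysis list and comparison with the largest difference, and the 3 nearest courses to each member. Some genes that this rule names are not reported here. Alternatives were another pseudocount, filters, scalings, library weights, a replicate block, fits of only the groups compared, and leaving out each library. Tables and figures were made with Python 3.11.15. The members and lists were chosen with earlier results of these data known.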

Additional observations from a re-analysis of the deposited data

Results flagged for a closer look

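Timp1 went in opposite directions between genotypes on different days, without overlap of the libraries on either: all KO libraries were below all WT libraries on D4 (-1.64 ± 0.67 SE on the log2 scale) and above them on D14 (1.03 ± 0.67). Neither difference was called (limma, adjusted p = 0.212 and 1), and the D4 difference was -0.81 without KO D4 replicate 2. The change between these days in the difference of KO from WT was 2.67 ± 0.95 (unadjusted p = 0.0110), which did not pass the adjustment over all genes (limma, adjusted p = 0.404). Without KO D4 replicate 2, a value added after seeing the data, it was 1.83 ± 0.85 (limma, adjusted p = 0.900). On D14 Timp1 was at no more than 10.1 TPM in any library, against 14.9 TPM or more on D4. Over all genes tested, the KO and WT libraries did not overlap for 14% on D4 and for 8.42% on D14.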

How the results depend on the processing

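Groups of 3 limit what could be called, and TPM gives no depth. The members' SDs pooled over the injured groups were up to 1.29 (Mmp12), and that of Mmp12 on WT D4 alone was 2.20. The number of members called was within 1.5 times of that reported for WT D1 against control in every alternative. It was 3 rather than 5 for WT D4 against D1, 1 rather than 2 for WT D7 against D4 and 0 rather than 4 for KO D4 against D1 when only the 2 groups compared were fitted. Median-of-ratios scaling gave 4 rather than 7 for WT D14 against D7 and 2 rather than 0 for KO D14 against D7, and quantile normalization also gave 2 for the latter. With library quality weights 8 members were called for WT D7 against D4, 9 for KO D14 against D7 and 1 for KO against WT on D7 (Mmp13, -1.52, adjusted p = 0.0388). The cause was not tested. Leaving out 1 library gave from 3 to 5 calls for WT D4 against D1, 1 to 2 for WT D7 against D4, 1 to 8 for WT D14 against D7, 2 to 4 for KO D4 against D1 and 0 to 3 for KO D14 against D7.

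Signs turned for Mmp2 in WT D1 against control (-0.29 by median-of-ratios, -0.0852 by quantile normalization), Timp2 (-0.68 and -0.44, and from -0.0789 without control replicate 2 to 0.24) and Timp3 (-0.57 and -0.45). Timp1 in WT D4 against D1 ranged from -0.87 to 0.33, positive without WT D1 replicate 1 (0.08), WT D1 replicate 2 (0.33) or WT D4 replicate 2 (0.02), and Timp2 in WT D1 against control was -0.03 without WT D1 replicate 2. Mmp14 in KO D4 against D1 ranged from -0.0442 without KO D4 replicate 1 to 1.39 without KO D4 replicate 2. For the members' differences given here, 371 of 408 values under other settings and 350 of 396 with 1 library left out kept their direction and side of the threshold, and 18 and 35 lost a call. List values without KO D4 replicate 2 were added after seeing the data.

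Whether replicate numbers pair the samples is not labeled, and the values cannot settle it. Same-numbered libraries had deviations correlated from -0.40 to 0.39 over 12 pairs of injured groups, of which 4 exceeded 0.1. Between control and WT D1 the correlations were at most 0.06. The study names contralateral muscle as control, so control and WT D1 libraries may share animals, and the main test left out any such pairing. With the replicate number as a block, 6 members were called in WT D1 against control (Mmp2 0.49, adjusted p = 0.0730) and the counts of the other comparisons were the same.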
